A study of Mus musculus with 16 samples.

Results

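The Wnt pathway genes described here are the Wnt ligands, the Frizzled (*Fzd*) receptors with the co-receptors *Lrp5*, *Lrp6*, *Ror1* and *Ror2*, the secreted inhibitors of the *Sfrp* and *Dkk* families with *Frzb* and *Wif1*, the intracellular inhibitors *Nkd1*, *Nkd2*, *Axin1* and *Axin2*, and the nuclear effectors *Lef1* and *Tcf7*. They were taken by gene symbol from the annotation of the microarray, which gave 49 genes of 31982 named genes. A gene measured by several probes is represented by the probe with the highest mean signal. The genes comprise 19 ligands, 14 receptors and co-receptors, 10 secreted inhibitors, 4 intracellular inhibitors and 2 nuclear effectors.

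Wnt ligands are secreted lipid-modified proteins that bind Frizzled receptors. With LRP5 or LRP6 as co-receptor they stabilize β-catenin, which enters the nucleus and activates genes together with TCF/LEF factors. With ROR1 or ROR2 they act on cell polarity and movement without β-catenin. SFRP proteins and WIF1 bind Wnt ligands outside the cell, several DKK proteins block the LRP co-receptors, and NKD and AXIN proteins restrain the pathway in the cytoplasm. In the heart the pathway is known for stage-dependent roles in the formation, proliferation and patterning of cardiomyocytes (CMs).

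The cells came from hearts of wild-type CD1 mice and were sorted by how much integrin α6 (ITGA6, also CD49f) they carried on the surface, a marker by which the study sought to separate atrial from ventricular CMs. At embryonic day (E) 15.5, cells positive for the receptor ERBB-2 were sorted into ITGA6low (EL) and ITGA6high (EH) fractions. At postnatal day (P) 2, cells were depleted of non-myocytes with magnetic beads, without ERBB-2 selection, and sorted into ITGA6low (PL) and ITGA6high (PH) fractions. An experiment pooled 20 to 30 embryonic or 15 neonatal hearts and yielded at least 50000 cells per fraction, of which 10 ng RNA was amplified and hybridized to a one-color microarray with 60-base probes. There were 4 microarrays per group, 16 in all, numbered 2, 3, 6 and 8 at E15.5 and 2, 3, 4 and 5 at P2. Values are quantile-normalized signal intensities without a unit, listed in the order of these numbers. Levels of different genes are not compared, since probes differ in their response, and the brightest probe of a list or role serves only to choose a gene to name. A probe counts as well above background where the scanner software marked it so, which concerned 38.9% to 41.0% of probes in EL, 40.9% to 46.5% in EH, 35.7% to 39.8% in PL and 37.0% to 40.6% in PH. A gene is called where it changed 3-fold or more and limma, fitted across 55681 probes, gave it a p of 0.05 or less after Benjamini-Hochberg adjustment.

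All 8 CM marker genes checked, among them *Tnnt2* and *Actc1*, were well above background on every microarray. Of these, *Myh6* alone was called at E15.5, 3.58-fold higher in EH (limma adjusted p = 1.18e-07), and 0 were called at P2. Their summed signal was 488900 to 535800 in EL, 684900 to 731300 in EH, 788000 to 830100 in PL and 722300 to 806600 in PH. All 8 atrial markers were called higher in ITGA6high cells at both stages, with a summed signal of 19850 to 25340 in EL, 424600 to 444600 in EH, 11450 to 51040 in PL and 624600 to 726600 in PH. Of the 6 ventricular markers, 4 were called lower in EH and 6 in PH, with sums of 462800 to 483500 in EL, 141900 to 226900 in EH, 336600 to 380000 in PL and 23870 to 36450 in PH. The fractions at a stage thus differed in their atrial and ventricular marker genes, and all differences below stand between such mixtures. In sorted bulk cells, fewer cells of a type and less RNA per cell cannot be told apart.

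RNA of other cell types was present and differed between groups. The summed signal of 8 fibroblast genes, with *Col1a2* having the brightest probe, was 12830 to 22360 in EL, 5437 to 10460 in EH, 522.5 to 1627 in PL and 545.3 to 800.5 in PH. *Pdgfra*, a defining fibroblast receptor gene, was well above background on 0 of 8 P2 microarrays, whereas *Col1a1*, *Col1a2*, *Col3a1* and *Dcn* were so on all 16 microarrays. *Postn*, a matrix gene of fibroblasts, was well above background on 3 of 4 PL and 0 of 4 PH microarrays and at least 3.16-fold lower in PH (limma adjusted p = 0.00692). It was the only 1 of the 8 fibroblast genes called at P2, and its PL and PH samples overlapped. The sum of 7 epicardial genes (brightest probe *Msln*) was 3010 to 4117 in EL, 1000 to 2745 in EH, 52.8 to 193 in PL and 150.3 to 245.9 in PH. The epicardial genes *Wt1* and *Krt19* were called higher in PH than in PL, being well above background on 4 of 4 PH and 0 of 4 PL microarrays. Of 8 endothelial genes (brightest probe *Kdr*), 4 were called higher in EH than in EL, namely *Cdh5*, *Emcn*, *Tie1* and *Flt1*. Between PH and PL, 0 of 8 differed by limma, also at an unadjusted p of 0.05. The analysis of variance of the study's methods, with its 3-fold limit, called 0 of them there. *Cdh5* and *Emcn* were well above background on 0 of 8 P2 microarrays. The endothelial sum was 1064 to 1219 in EL, 1006 to 2819 in EH, 341.8 to 1554 in PL and 476.5 to 1059 in PH. Among 6 smooth muscle genes (brightest probe *Acta2*), 1 was called higher and 1 lower at E15.5, and 1 higher and 2 lower at P2, with sums of 43620 to 47760 (EL), 25750 to 33740 (EH), 17840 to 41250 (PL) and 4734 to 8689 (PH). *Myh11*, a defining smooth muscle gene, was not well above background anywhere. Of 5 leukocyte genes (brightest probe *Csf1r*), 2 were called higher in EH, with sums of 481.6 to 1610.0 (EL), 870.2 to 6612 (EH), 285.7 to 384.9 (PL) and 206.9 to 327 (PH). Of 5 erythroid genes (brightest probe *Hba-a1*), *Epor* was called higher in PH, with sums of 3672 to 30440 (EL), 5407 to 34110 (EH), 386.2 to 891.9 (PL) and 340.3 to 446.3 (PH). Of 6 nodal genes (brightest probe *Cacna1g*), *Shox2* was called higher in EH although well above background on only 1 of 4 EH and 0 of 4 EL microarrays, with sums of 613.6 to 825.6 (EL), 490.8 to 724.8 (EH), 1450 to 2662 (PL) and 1028 to 1750 (PH). The nodal genes *Hcn4* and *Isl1* were well above background on 0 of 16 microarrays, and *Shox2* on 0 of 8 P2 microarrays. Of 5 genes of neural crest derivatives (*Sox10*, *S100b*, *Tubb3*, *Dct* and *Pmel*), 0 were called at E15.5 and *Dct*, a melanocyte gene, was called lower in PH than in PL (20.0 against 414, limma adjusted p = 6.47e-06), whereas *Pmel*, another melanocyte gene, did not pass (18.4 against 12.4, limma adjusted p = 0.628). *Sox10*, a defining gene of crest-derived glia, was well above background on 0 of 16 microarrays. The sums of these 5 genes were 27.3 to 35.3 (EL), 40.8 to 54.9 (EH), 313 to 727 (PL) and 36.7 to 75.05 (PH). The part of these cell types in the differences below was not tested.

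Of the 49 genes, 29 were well above background throughout at least 1 group, that is on its 4 microarrays, 16 on all 16 microarrays and 16 on none. The undetected genes were *Wnt2*, *Wnt2b*, *Wnt3*, *Wnt3a*, *Wnt6*, *Wnt7a*, *Wnt7b*, *Wnt8a*, *Wnt8b*, *Wnt10a*, *Fzd10*, *Dkk1*, *Dkk2*, *Dkk4*, *Sfrp4* and *Axin2*. Detection in at least 1 whole group held for 13 of 14 receptors and co-receptors, for 7 of 19 ligands and for 5 of 10 secreted inhibitors. Hence most receptors were measurable in these CM fractions, whereas most ligands were not.

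**Figure D1:**
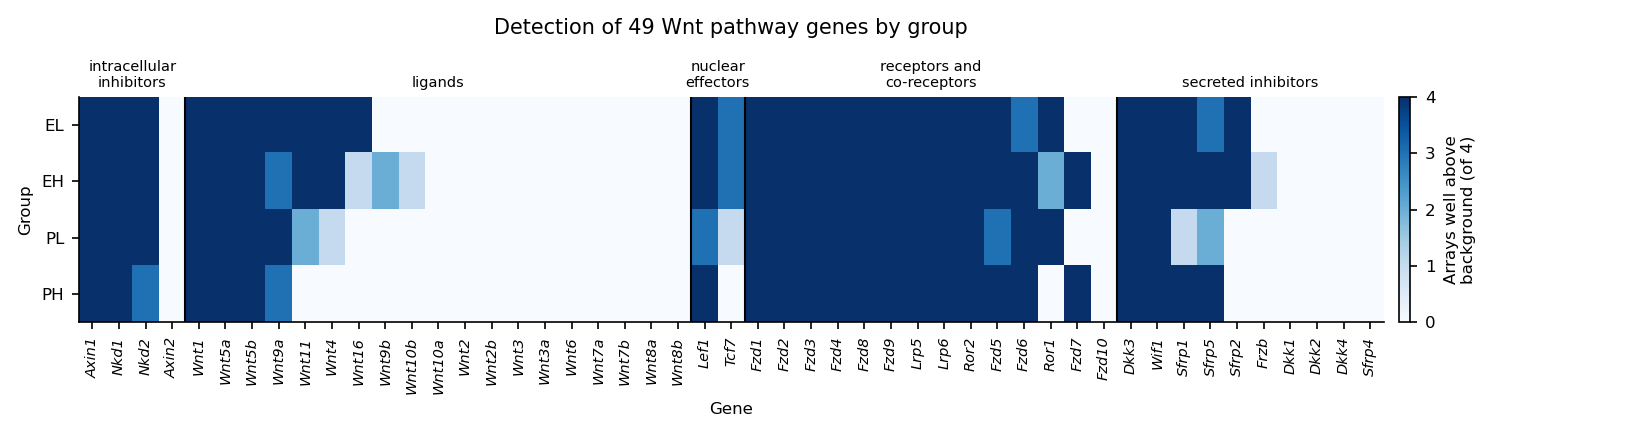
Number of microarrays, of 4 per group, on which the probe of each of the 49 Wnt pathway genes was well above background, by group (rows) and gene (columns, sorted by role). Receptors form a nearly filled block, with 13 of 14 detected in at least 1 whole group, and 10 of 19 ligands are empty in all groups.

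At E15.5, 3 of the 49 genes were called higher in EH than in EL and 2 lower, which is 10.2% of the genes against 1.63% of all probes (1.17% higher, 0.454% lower). At P2, 5 were called higher in PH than in PL and 5 lower, or 20.4% against 2.65% of all probes (1.73% higher, 0.916% lower). Undetected probes make up most of the microarray. Among the probes detected in at least 1 whole group the shares called were 3.54% at E15.5 and 5.59% at P2. The median log2 difference of the 49 genes was 0.002 at E15.5, beside -0.0249 over all probes, and -0.011 at P2, beside -0.00531. The median of the absolute log2 differences was 0.368 and 0.322 at the respective stages, beside 0.2 and 0.22 over all probes. Secreted inhibitors held the most calls of any role, 3 of 10 at E15.5 and 4 of 10 at P2. With the background correction normexp, which adds a constant to every signal, 2 genes were called at E15.5 (*Dkk3*, *Sfrp5*) and 3 at P2 (*Dkk3*, *Sfrp5*, *Wif1*). With signals raised to the lowest one well above background, the 3 genes called at E15.5 were *Dkk3*, *Sfrp5* and *Wif1*.

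**Figure D2:**
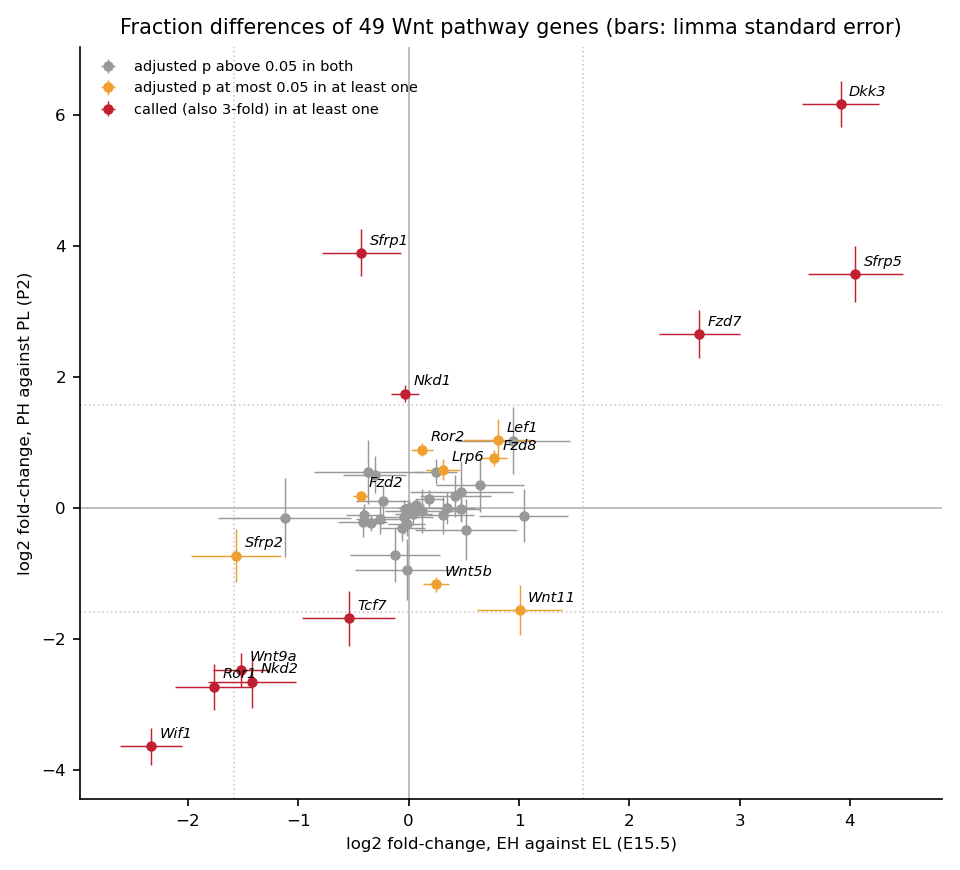
Log2 fold-change of the 49 genes between ITGA6high and ITGA6low cells at E15.5 (horizontal axis) and P2 (vertical axis), with limma standard errors as bars and the 3-fold limits as dotted lines. *Dkk3*, *Sfrp5* and *Fzd7* lie in the upper right, *Wif1*, *Ror1*, *Nkd2* and *Wnt9a* in the lower left, and *Sfrp1* and *Nkd1* near 0 at E15.5 but above the limit at P2.

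The probe sequences behind the secreted and intracellular inhibitors with the largest differences identify what was measured. Shown are the first 30 of 60 bases, 5′ to 3′, with their mm9 position and strand as annotated by the manufacturer. Both *Nkd2* probes are shown because their values differed.
Dkk3, chr7:119259556-119259615, minus strand: gcctgtaaatcgcatctgaagataccacag
Sfrp5, chr19:42272509-42272568, minus strand: attattgctactgctgtggggccgctgatt
Wif1, chr10:120537079-120537138, plus strand: ggctgatatctactcttccttttaggtttt
Sfrp1, chr8:24559438-24559497, plus strand: ttaaaatagtcattccggagagtcagggaa
Nkd1, chr8:91116160-91116219, plus strand: cactaatatttagccagccttcatgtagaa
Nkd2, chr13:73956776-73956835, minus strand: tccaacaccctcacacagacatacatgtag
Nkd2, other probe, chr13:73957581-73957640, minus strand: tgagtttatgaaagttgggcatgatgcctt

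Among the secreted inhibitors, *Dkk3* and *Sfrp5* were much higher in ITGA6high cells at both stages, *Wif1* was lower at both, and *Sfrp1* was higher in ITGA6high cells at P2. *Dkk3*, a divergent member of the DKK family, had signals of 445, 464, 369 and 388 in EL and of 6541, 6056, 5584 and 6930 in EH. At P2 they were 147, 448, 751 and 317 in PL and 24081, 22353, 28634 and 27677 in PH. The ITGA6high samples lay above all ITGA6low samples at both stages, and PH lay above EH without overlap. The difference was 15.1-fold at E15.5 (log2 3.92, SE 0.347, limma adjusted p = 6.93e-06) and 72.3-fold at P2 (log2 6.18, SE 0.347, limma adjusted p = 4.37e-08).

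*Sfrp5*, a secreted Frizzled-related protein, had signals of 36.5, 17.7, 24.8 and 21.5 in EL and of 464, 353, 347 and 453 in EH. At P2 the signals were 12.2, 29.1, 76.6 and 21.5 in PL and 234, 385, 310.4 and 427 in PH. The fractions did not overlap at either stage, and sample 3 of EL and samples 2 and 5 of PL were not well above background. The difference was 16.6-fold at E15.5 (log2 4.05, SE 0.431, limma adjusted p = 3.64e-05). At P2 it was 3.58 on the log2 scale (SE 0.431, limma adjusted p = 5.32e-05).

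*Wif1*, which binds Wnt ligands directly, behaved oppositely. Its signals were 343, 248, 394 and 277 in EL and 59.0, 32.5, 75.7 and 98.6 in EH. In the P2 samples they were 591, 611, 687 and 493 in PL and 45.1, 43.5, 66.2 and 40.01 in PH. Every ITGA6high sample lay below every ITGA6low sample of its stage, and all 16 were well above background. *Wif1* was 5.05-fold lower in EH (log2 -2.34, SE 0.284, limma adjusted p = 0.000111) and 12.4-fold lower in PH (log2 -3.63, SE 0.284, limma adjusted p = 9.45e-07).

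*Sfrp1* had signals of 105, 128, 85.2 and 106 in EL and of 81.5, 96.0, 59.9 and 79.3 in EH. At P2 they were 12.1, 22.1, 5.23 and 20.004 in PL and 144, 199.8, 223 and 219 in PH. EL and EH overlapped, although EH was below EL in each of 4 pairs of the same sample number, whereas PL lay below all other groups and was well above background in sample 3 only. The log2 difference was -0.43 at E15.5 (SE 0.359, limma adjusted p = 0.618, and 0.55 with the sample number as a block) and 3.90 at P2 (limma adjusted p = 4.59e-06). With signals raised to the lowest one well above background, the P2 difference was 3.22 on the log2 scale. *Frzb*, another Frizzled-related protein, was well above background on 1 of 16 microarrays, sample 2 of EH, where its signal was 21.6. Its other signals ranged from 3.95 to 25.7, and the fractions overlapped at both stages.

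The intracellular inhibitors *Nkd2* and *Nkd1*, which bind Dishevelled, moved in opposite directions at P2. *Nkd2* had signals of 124, 109, 112 and 92.3 in EL and of 65.4, 31.9, 38.1 and 34.7 in EH. At P2 its signals were 457, 162, 189 and 259 in PL and 89.5, 22.5, 35.4 and 33.4 in PH. ITGA6high samples lay below ITGA6low samples at both stages, with sample 2 the highest of both P2 fractions. *Nkd2* was 6.25-fold lower in PH than in PL (log2 -2.64, SE 0.4, limma adjusted p = 0.000404), with 3 of 4 PH samples well above background. With normexp this log2 difference was -1.49, short of 3-fold. At E15.5 the log2 difference of -1.42 (limma adjusted p = 0.0446) fell short of 3-fold, and its adjusted p was 0.0688 with the slide as a block, 0.0532 with 75th percentile scaling and as much as 0.115 when single microarrays were left out.

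The other *Nkd2* probe, whose start lies 805 bases from that of the first, gave a larger difference. Its signals were 62.4, 77.2, 53.7 and 65.5 in EL and 226, 69.0, 62.2 and 124 in PL, whereas in EH and PH it was well above background on none of 8 microarrays. By that probe *Nkd2* was at least 5.47-fold lower in EH (limma adjusted p = 4.35e-06) and at least 6.54-fold lower in PH (limma adjusted p = 2.16e-07). Such bounds set the mean of the brighter group against the lowest signal marked as well above background on each microarray of the dimmer group.

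*Nkd1* had signals of 216, 254, 232 and 233 in EL and of 223, 249, 193 and 255 in EH. The P2 signals were 67.1, 70.05, 46.8 and 68.0 in PL and 209, 190.5, 214 and 228 in PH. PL alone stood apart, below all samples of the other groups. The log2 difference was -0.03 at E15.5 (SE 0.127, limma adjusted p = 0.967) and 1.76 at P2 (3.37-fold, limma adjusted p = 4.7e-07). With normexp the P2 log2 difference of *Nkd1* was 1.15, short of 3-fold. *Axin2*, a feedback inhibitor that β-catenin signaling commonly induces, had signals of 3.81 to 8.80 in EL, 4.83 to 9.46 in EH, 3.95 to 5.70 in PL and 3.97 to 14.6 in PH. None of these was well above background, so the groups cannot be ordered. *Axin1*, a scaffold of the β-catenin destruction complex and the gene of this role with the brightest probe, had group means of 276, 314, 308.5 and 337 in EL, EH, PL and PH and adjusted p of 0.535 and 0.622 by limma for the respective stages.

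**Figure D3:**
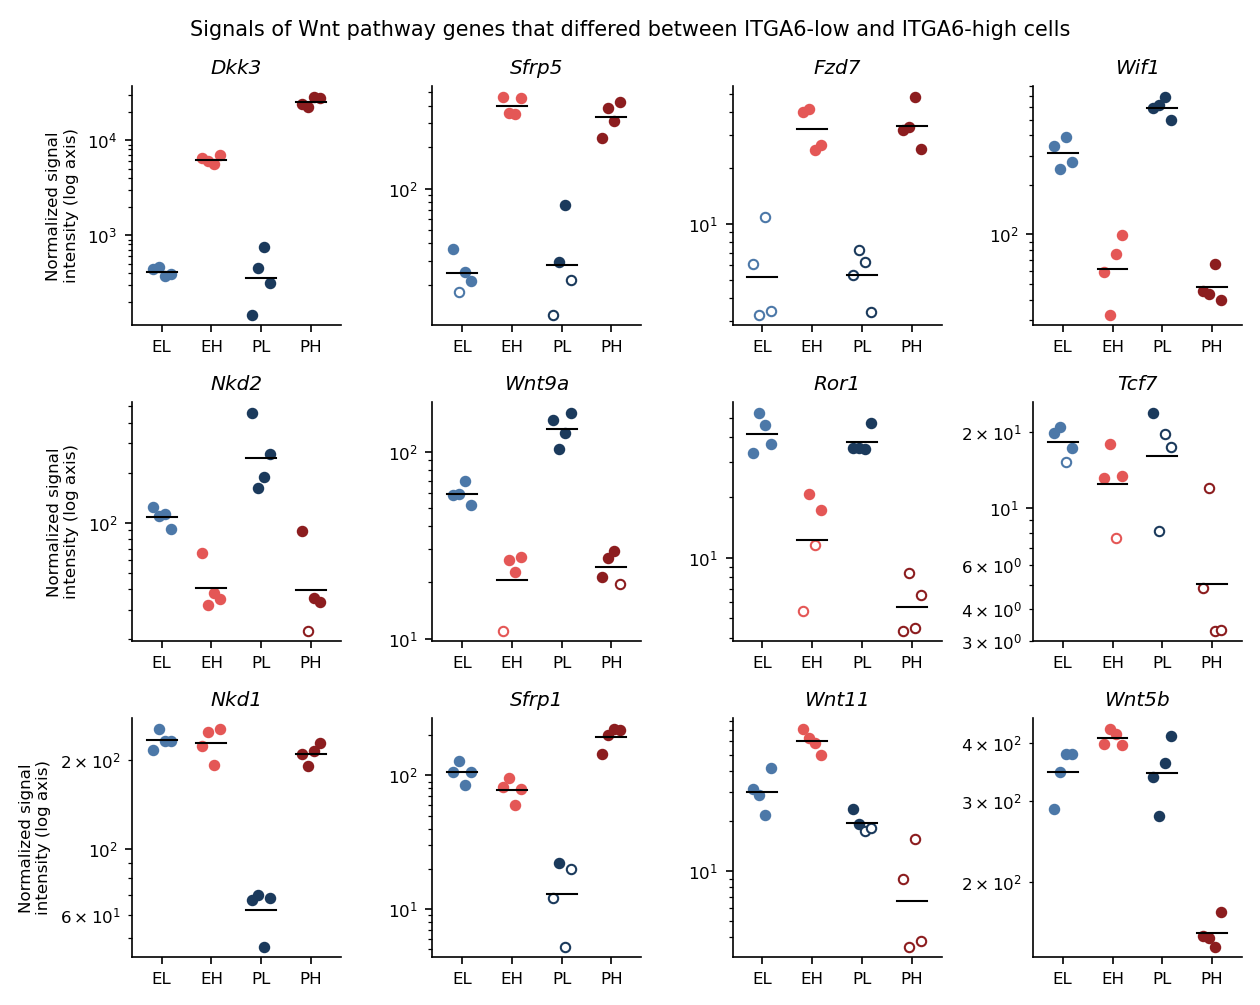
Normalized signal intensity (log axis, its own range in each panel) of 12 Wnt pathway genes in 4 microarrays per group, with open symbols where the probe was not well above background and lines at the mean of the log2 values. The ITGA6high samples of *Dkk3*, *Sfrp5* and *Fzd7* lie above, and those of *Wif1*, *Nkd2* and *Wnt9a* below, all ITGA6low samples of the same stage.

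Of the receptors and co-receptors, *Fzd7* was higher and *Ror1* lower in ITGA6high cells at both stages. *Fzd7*, a receptor of the β-catenin and polarity branches, had signals of 39.8, 41.6, 24.8 and 26.4 in EH and of 32.0, 33.0, 48.1 and 25.4 in PH. In EL and PL its signals ranged from 3.25 to 10.8 and from 3.35 to 7.21, none of them well above background, and the fractions did not overlap. *Fzd7* was at least 2.21-fold higher in EH (limma adjusted p = 0.000375) and at least 1.74-fold higher in PH (limma adjusted p = 0.000195). A further *Fzd7* probe was not well above background on any microarray.

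*Ror1*, a receptor tyrosine kinase-like co-receptor, had signals of 33.4, 52.8, 45.9 and 37.1 in EL and of 5.44, 20.7, 11.6 and 17.2 in EH. At P2 they were 35.2, 35.3, 34.8 and 47.1 in PL and 4.34, 8.41, 4.47 and 6.55 in PH. ITGA6high samples were below ITGA6low samples at both stages, and 2 EH and 0 PH samples were well above background. The log2 difference at E15.5 was -1.76 (limma adjusted p = 0.00544), and without sample 2 of EH it was -1.37, below the 3-fold limit. At P2 *Ror1* was at least 2.36-fold lower in PH (limma adjusted p = 0.000101).

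Smaller differences in receptors also passed the adjusted p without reaching 3-fold. *Fzd8* rose from a mean of 84.5 in EL to 145 in EH and from 66.8 in PL to 114 in PH, with a log2 difference of 0.77 at each stage (limma adjusted p = 0.000841 and 0.000515). *Ror2*, the related polarity co-receptor, had means of 241 in PL and 446 in PH (log2 0.90, limma adjusted p = 1.97e-05). *Fzd2*, the receptor with the brightest probe, was lower in EH than in EL (1155 against 1558, log2 -0.44, limma adjusted p = 0.00109). *Lrp6*, the co-receptor of the β-catenin branch, was 1003 in PH and 682 in PL (log2 0.59, limma adjusted p = 0.0236), with an adjusted p of up to 0.072 when single microarrays were left out.

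Of the 19 ligands, *Wnt9a* alone was called at P2 and 0 were called at E15.5. At E15.5, 3 had an unadjusted p under 0.05 by limma and 1 an adjusted one. The methods' analysis of variance, with its 3-fold limit, called 0 of them. *Wnt9a* had signals of 58.6, 59.03, 69.2 and 51.6 in EL and of 11.1, 26.4, 22.8 and 27.5 in EH. The signals at P2 were 148, 103, 125 and 161 in PL and 21.4, 27.0, 29.5 and 19.5 in PH. The fractions did not overlap at either stage. *Wnt9a* was 5.51-fold lower in PH (log2 -2.46, SE 0.256, limma adjusted p = 1.41e-05), and its log2 difference of -1.52 at E15.5 (limma adjusted p = 0.00162) was below 3-fold. It was well above background on 3 of 4 EH and 3 of 4 PH microarrays. With normexp the P2 log2 difference was -1.12, short of 3-fold.

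*Wnt5b* and *Wnt11* are ligands known mainly for signaling without β-catenin. *Wnt5b* was lower in PH than in PL, whereas the P2 difference of *Wnt11* rested on signals near background. *Wnt11* had signals of 31.3, 28.6, 21.7 and 41.4 in EL and of 71.3, 62.8, 58.4 and 49.9 in EH. In the P2 samples they were 23.6, 19.1, 17.3 and 18.1 in PL and 8.96, 3.53, 15.6 and 3.83 in PH. EH was the highest group and PH the lowest, without overlap between the fractions of a stage, and 2 PL and 0 PH samples were well above background. The log2 difference was 1.01 at E15.5 (limma adjusted p = 0.16), whereas at P2 *Wnt11* was at least 1.21-fold lower in PH (limma adjusted p = 0.0152, and 0.0506 without sample 5 of PH). With signals raised to the lowest one well above background, the *Wnt11* difference at P2 was -0.46 on the log2 scale (limma adjusted p = 0.176), and with normexp it was -0.11 (limma adjusted p = 0.365). *Wnt5b* had means of 347 and 410.0 in EL and EH and of 347 and 155 in PL and PH (log2 at P2 -1.16, SE 0.116, limma adjusted p = 1.08e-05).

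The promoter windows of these ligands are shown because the 7-base TCF/LEF motif ATCAAAG or its reverse complement CTTTGAT, in capitals, occurs in both, before 1 of 2 RefSeq transcription starts of *Wnt11* and 1 of 3 of *Wnt5b*. The windows of the other starts of these genes did not hold it and are not shown. Each window is the 250 bases before such a start on GRCm38.p6, 5′ to 3′ in the direction of transcription. Among 34 of the 49 genes with a RefSeq promoter in the table used, 2 held this motif before any of their starts, compared with 3.72% of 27025 genes counted in the same way. A match does not show a bound site.
Wnt11, chr7:98834862-98835111, plus strand: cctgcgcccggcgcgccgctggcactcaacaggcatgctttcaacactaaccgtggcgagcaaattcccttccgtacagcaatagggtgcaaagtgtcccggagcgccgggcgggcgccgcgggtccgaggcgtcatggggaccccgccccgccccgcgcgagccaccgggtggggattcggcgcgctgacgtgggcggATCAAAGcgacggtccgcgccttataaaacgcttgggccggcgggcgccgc
Wnt5b, chr6:119449387-119449636, minus strand: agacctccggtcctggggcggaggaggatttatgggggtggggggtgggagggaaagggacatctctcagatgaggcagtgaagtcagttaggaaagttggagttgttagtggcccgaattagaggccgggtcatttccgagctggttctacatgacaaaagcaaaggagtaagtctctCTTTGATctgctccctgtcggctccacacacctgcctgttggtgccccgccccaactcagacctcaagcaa

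Of the nuclear effectors, *Tcf7* was near background at P2, and the size of the *Lef1* difference depended on the probe. *Tcf7* had signals of 23.7, 8.14, 19.7 and 17.4 in PL and of 4.83, 12.1, 3.30 and 3.32 in PH, with 1 PL and 0 PH samples well above background. At E15.5 they were 19.8, 20.9, 15.2 and 17.3 in EL and 13.2, 17.9, 7.65 and 13.4 in EH. The fractions overlapped at both stages. *Tcf7* was called lower in PH (log2 -1.68, SE 0.419, limma adjusted p = 0.0168), but with signals raised to the lowest one well above background the log2 difference was -0.41 (limma adjusted p = 0.173), so no fold is given. The adjusted p was also above 0.05 without sample 2 of PL (0.0562), sample 4 of PH (0.0575) or sample 5 of PH (0.0564). *Lef1* had means of 108 in EL and 185.5 in EH, which did not pass (limma adjusted p = 0.176). At P2 its means were 43.9 in PL and 87.9 in PH (log2 1.05, limma adjusted p = 0.0485), and this adjusted p exceeded 0.05 under most omissions of a single microarray. By the other *Lef1* probe the means were 32.5, 54.2, 7.17 and 26.4 in EL, EH, PL and PH, and the E15.5 difference did not pass (limma adjusted p = 0.296). That probe was well above background on 3 of 4 PH and 0 of 4 PL microarrays, the P2 fractions did not overlap, and *Lef1* was at least 1.29-fold higher in PH (limma adjusted p = 0.00321).

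**Figure D4:**
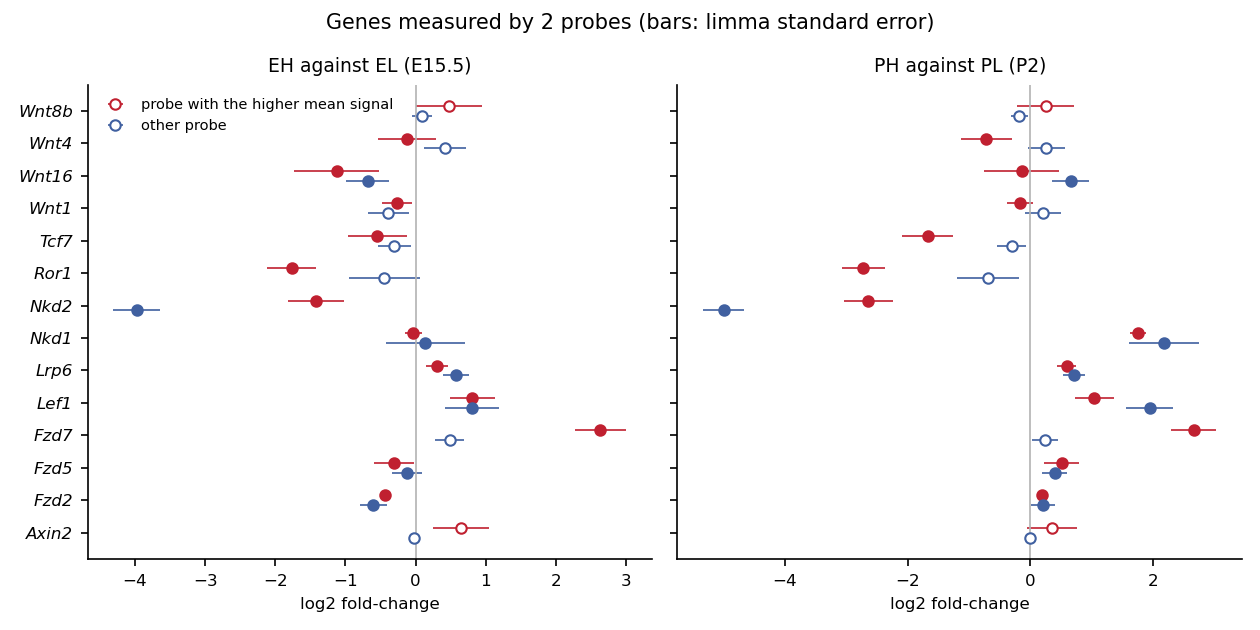
Log2 fold-change between ITGA6high and ITGA6low cells for the 14 genes with more than 1 probe, at E15.5 (left) and P2 (right), with limma standard errors as bars and open symbols for probes not well above background on any microarray. Both *Nkd2* probes lie below 0 at both stages, the other probe further from 0, and the undetected second probes of *Fzd7* and *Ror1* lie nearer to 0 than the first.

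Whether a fraction difference differed between the stages was tested as an interaction, the log2 difference at P2 minus that at E15.5. Stage and sorting procedure cannot be told apart in this test, since only the E15.5 cells were selected by ERBB-2. Here 3 genes were called higher and 1 lower, 8.16% of the 49 genes against 1.2% of all probes (0.602% in each direction). Called higher were *Sfrp1* (4.33, SE 0.508, limma adjusted p = 0.000288, and 3.65 with signals raised to the lowest one well above background), *Dkk3* (2.26, SE 0.491, limma adjusted p = 0.0216) and *Nkd1* (1.78, SE 0.18, limma adjusted p = 8.9e-05). With normexp the interaction of *Nkd1* was 1.17, short of 3-fold. *Wnt11* was called in the other direction (-2.56, SE 0.542, limma adjusted p = 0.0188), but PH was not well above background. With signals raised to the lowest one well above background it was -1.47, below the 3-fold limit, and with the sample number as a block its adjusted p was 0.0504. *Wnt5b* (-1.40), *Ror2* (0.78) and *Fzd2* (0.63) passed the adjusted p without 3-fold, that of *Fzd2* being 0.0655 with 75th percentile scaling. For *Nkd2*, *Wif1*, *Wnt9a*, *Ror1*, *Fzd7* and *Sfrp5* the interaction did not pass (limma adjusted p of 0.403, 0.126, 0.256, 0.497, 0.993 and 0.822, respectively).

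Between the stages, 0 genes were called higher and 6 lower in PL than in EL, 12.2% against 3.75% of all probes (1.6% higher, 2.15% lower). At an unadjusted p of 0.05 by limma, 5 were higher, and the methods' analysis of variance called 0 higher. In PH, 1 was called higher and 3 lower than in EH, 8.16% against 3.39% (1.3% higher, 2.1% lower). Stage, slide and sorting procedure cannot be told apart here, because all P2 samples lay on a slide of their own and were sorted without ERBB-2. *Sfrp2*, a secreted Frizzled-related protein, had means of 146 in EL and 48.1 in EH and was not well above background in PL and PH. It was at least 7.21-fold lower in PL than in EL (limma adjusted p = 6.68e-06) and at least 2.94-fold lower in PH than in EH (limma adjusted p = 6.57e-05). With normexp these log2 differences of *Sfrp2* were -1.50 and -0.79, both short of 3-fold. With signals raised to the lowest one well above background, that of PH against EH was -1.56, also short of 3-fold. The fibroblast marker sum given above was also lower in every P2 sample than in every E15.5 sample, and its part in the *Sfrp2* difference was not tested. At E15.5 its log2 difference between the fractions was -1.56 (limma adjusted p = 0.0286, 0.099 with the sample number as a block, and up to 0.0946 without 1 of samples 2 and 6 of EL or 6 and 8 of EH).

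Of the ligands, *Wnt4* was also lower at P2, and *Wnt16* was called lower in PL than in EL on signals near background. *Wnt4* had means of 53.2, 45.8, 16.9 and 9.13 in EL, EH, PL and PH. It was called lower in PL than in EL (log2 -1.79, limma adjusted p = 0.00596; log2 -1.57, short of 3-fold, without sample 2 of PL), with 1 of 4 PL samples well above background, and at least 2.84-fold lower in PH than in EH (limma adjusted p = 0.000848). With signals raised to the lowest one well above background, the *Wnt4* differences were -1.20 and -1.51 on the log2 scale, both short of 3-fold. *Wnt16* was well above background on 4 of 4 EL and 0 of 4 PL microarrays and at least 1.27-fold lower in PL (limma adjusted p = 0.0119), but with signals raised to the lowest one well above background the log2 difference was -0.35 (limma adjusted p = 0.413). *Ror2* fell between the ITGA6low groups (log2 -1.90, limma adjusted p = 1.82e-08), as did *Nkd1* (log2 -1.91, limma adjusted p = 1.83e-07) and *Sfrp1* (log2 -3.02, limma adjusted p = 3.02e-05, and -2.34 with signals raised in that way, since 1 of 4 PL samples was well above background). With normexp the log2 differences of *Nkd1* and *Sfrp1* were -1.24 and -0.99, both short of 3-fold. With the median over probes that of *Nkd1* was -1.44, also short of 3-fold. In the ITGA6high groups *Wnt11* was at least 3.75-fold lower at P2 (limma adjusted p = 4.35e-05), and *Dkk3* was 4.08-fold higher (limma adjusted p = 0.000797). With normexp this log2 difference of *Wnt11* was -0.77, short of 3-fold. *Wnt1*, by its brighter probe well above background on all 16 microarrays, had group means of 72.7 to 112 and passed none of these tests. The other *Wnt1* probe never reached that mark, its means being 5.20, 3.53, 3.59 and 4.30 in EL, EH, PL and PH. Detection of *Wnt1* therefore depended on the probe.

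**Figure D5:**
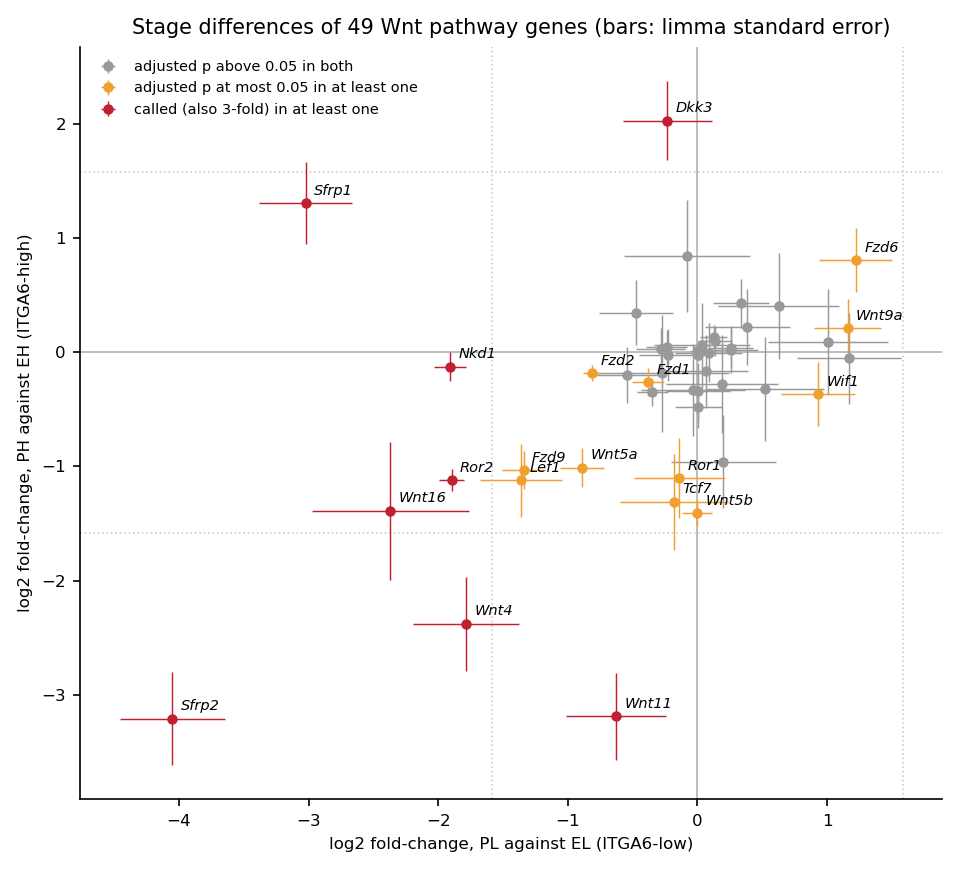
Log2 fold-change of the 49 genes between P2 and E15.5 in ITGA6low (horizontal axis) and ITGA6high cells (vertical axis), with limma standard errors as bars and the 3-fold limits as dotted lines. *Sfrp2* and *Wnt4* lie past the limit in both fractions at the lower left, *Wnt11* in ITGA6high cells only, and *Sfrp1* and *Nkd1* in ITGA6low cells.

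Other genes of the pathway were counted from 4 lists, beside which 1.63% of all probes were called at E15.5 and 2.65% at P2. Of 24 genes of the cytoplasmic and nuclear core, 1 was called higher and 1 lower at E15.5, and 2 higher and 0 lower at P2, or 8.33% at each stage. *Tle3*, a Groucho-type co-repressor of TCF/LEF factors, rose from 233 ± 32.6 (SD, n = 4) in EL to 1860 ± 134 (SD, n = 4) in EH and from 54.2 ± 17.1 (SD, n = 4) in PL to 1350 ± 69.7 (SD, n = 4) in PH, which was 8.04-fold (limma adjusted p = 1.96e-07) and 25.8-fold (limma adjusted p = 9.82e-10). *Tle1*, of the same family, was 4.18-fold higher in PH (limma adjusted p = 6.79e-08), and *Tle4* was at least 1.68-fold lower in EH (limma adjusted p = 0.000741). *Ctnnb1*, *Apc* and *Gsk3b* were not called at either stage.

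Of 18 genes for ligand secretion, R-spondins and their receptors, 2 were called higher at P2. *Lgr6*, an R-spondin receptor, was well above background in PH only, with a mean of 88.9, at least 4.43-fold higher than in PL (limma adjusted p = 1.45e-05). *Rnf43*, a ligase that removes Frizzled receptors, was at least 1.33-fold higher in PH (limma adjusted p = 0.0107). Of 16 genes of the planar cell polarity branch, 1 was called at P2, *Daam2*, a formin that binds Dishevelled, which was 7.16-fold higher in PH (849 ± 88.5 against 119 ± 22.0, SD, n = 4, limma adjusted p = 1.21e-07). Of 16 genes known to respond to β-catenin, at P2 *Rnf43* was called higher and *Bmp4*, a growth factor, 3.45-fold lower (limma adjusted p = 1.3e-05). The median log2 differences of that list were 0.322 at E15.5 and -0.173 at P2. At E15.5, 0 genes of these last 3 lists were called. By limma 5, 6 and 7 of them, respectively, had an unadjusted p under 0.05, and 1, 2 and 3 an adjusted one. The methods' analysis of variance, with its 3-fold limit, called 0 of them.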

How the data were processed

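RNA of 4 groups of sorted mouse CMs was compared with 4 one-color microarrays per group. The authors deposited scanner files from Feature Extraction 10.7.3.1, holding signal intensities per spot after background subtraction by the software, and their own normalized log2 values per probe. Spots marked as outliers were left out (8 probes), replicate spots were averaged per probe, and the values of 55681 probes were quantile normalized on the linear scale and then transformed to log2. The result correlated with the deposited values with r = 1, and their medians differed by at most 0.000317. No depth applies to microarrays, so precision is limited by their number. The 4 samples of a group came from separate experiments, per the methods.

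Group means were fitted with limma 3.58.1 in R 4.3.3 over all 16 microarrays, and 5 contrasts were adjusted by Benjamini-Hochberg over all probes. The fit was tested on simulated data. Tables and plots were made in Python 3.11.15 (numpy 2.4.6, pandas 2.3.3, matplotlib 3.10.9). The 49 genes and all gene lists were chosen with earlier results of these data known. Named with every sample were genes called in a fraction contrast or the interaction, and *Nkd2*, *Axin2* and *Frzb*. Named with group values were genes past the adjusted p in a fraction contrast, genes called between stages and the gene with the brightest probe of each role. *Wnt1* was singled out after its values were seen. Pathway genes called in a fraction contrast were named, while *Ctnnb1*, *Apc* and *Gsk3b* were chosen as central genes. Of the 49 genes, 48 had an accession in RefSeq, all with the same symbol. Besides the TCF/LEF motif, the nuclear receptor half-site, GATA and T-box half-site motifs (AGGTCA, then AGATAA, then AGGTGTG) were searched on both strands and matched in 2, 3 and 6 of 34 promoters, compared with 15.8%, 11.4% and 5.88% of all genes. Marker lists also covered smooth muscle, leukocyte, erythroid, nodal and neural crest genes, and some genes of the last list are not reported here.

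Deviations from the group means of EL and EH samples with the same number had r = 0.255, 0.189, 0.450 and 0.379 over probes detected in at least 1 whole group, each over the 0.1 required of a pairing, but -0.00751, 0.019, 0.174 and 0.233 over all probes, so a pairing at E15.5 depended on the probes used. At P2 samples 2, 3 and 5 had r = 0.375, 0.176 and 0.542 over the detected probes, and 0.206, 0.0562 and 0.261 over all probes. Sample 4 did not pass by either (r = -0.0308 and 0.014). Microarrays at E15.5 lay on 2 slides, and those at P2 on 1. Alternatives changed 1 choice at a time, with the normexp model and its offset taken as 1: 75th percentile scaling, normexp (offset 50), the deposited values, log2 before quantile normalization (added after seeing the data), detected probes only, a floor, blocks for sample number or slide, the median over probes, the methods' test (analysis of variance with a Tukey test) and leaving out each microarray.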

Additional observations from a re-analysis of the deposited data

Results flagged for a closer look

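Of 92 groups of 4 microarrays tested over 23 named genes, 7 held a sample far from the other 3 (Dixon's test at 95%), and chance flags about 1 in 20 groups. For genes above background these were sample 4 of PL for *Nkd1* (46.8, the lowest), sample 5 of PL for *Ror1* (47.1, the highest) and sample 8 of EH for *Lrp6* (886.9, the lowest). The other flagged samples concerned signals that were not well above background: *Axin2* (8.80) and *Frzb* (9.24) in sample 2 of EL, and *Wnt16* in sample 5 of PL (11.2) and sample 3 of PH (7.44).

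For 7 genes the difference between ITGA6high and ITGA6low cells itself differed between the stages by the interaction test, which cannot tell stage from sorting procedure. On the log2 scale, the P2 difference minus the E15.5 difference was 4.33 for *Sfrp1*, 2.26 for *Dkk3*, 1.78 for *Nkd1*, 0.78 for *Ror2* and 0.63 for *Fzd2* (adjusted p of 0.0655 with 75th percentile scaling). It was -2.56 for *Wnt11* and -1.40 for *Wnt5b*.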

How the results depend on the processing

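The counts of called genes moved beyond 1.5 times under 2 alternatives. Normexp gave 2 genes for EH against EL, 3 for PH against PL, 2 for the interaction, 1 for PL against EL and 1 for PH against EH. An offset of 50 shrinks the fold-changes of dim probes, but its part was not tested apart from the background model. A floor at the lowest signal well above background gave 3 genes for EH against EL and 2 for PH against EH. Under the floor, PH against EH reversed for *Tcf7* (log2 0.18) and *Ror1* (log2 0.19), both not well above background in PH. Leaving out 1 microarray gave 5 to 7 genes for EH against EL, 9 to 11 for PH against PL, 3 to 5 for the interaction, 6 to 6 for PL against EL and 4 to 5 for PH against EH. With the sample number as replicate block, 5 genes were called at E15.5, 9 at P2 and 3 for the interaction. The block ended the adjusted p of *Sfrp2* (0.099) and *Wnt11* (0.0504) as given above. At P2, where sample 4 did not pass as a pair, it also ended that of *Tcf7* (0.0779) and *Lrp6* (0.0549). Of 53 differences of named genes past a threshold, 24 were lost with normexp, 11 with the floor besides the 2 reversed ones, 9 with the median over probes, 3 with 75th percentile scaling, 0 with the deposited values and 13 without some single microarray. Sample 2 of EH had the highest share of probes above background (46.5%). Dim signals limit *Fzd7*, *Ror1*, *Tcf7* and *Wnt11* to bounds or narrow margins.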
